A study of Mus musculus with 10 samples.

Results

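The 14-3-3 proteins of mouse mammary epithelium were described here through the 7 genes that encode them, Sfn, Ywhab, Ywhae, Ywhag, Ywhah, Ywhaq and Ywhaz. The genes were chosen by symbol from 24000 rows of deposited expression tables, and all 7 were found. The set was chosen because Sfn, which encodes 14-3-3 sigma, differed between the columns of both cell lineages, so the values of Sfn below are a description and no test of it is given as support. RNA was sequenced from epithelial cells sorted by FACS from mammary glands of wild type (WT) female mice and of female mice knockout (KO) for Bptf, a subunit of the NURF chromatin remodelling complex. Before cell isolation, mice of both genotypes were given tamoxifen to a total of 15 mg per kg. The 10 libraries formed 5 groups of 2, namely WT luminal, KO luminal, WT myoepithelial (basal), KO myoepithelial and KO Bsecs, a population whose name the labels leave unexplained and which they give for KO mice alone. No source used here gives the mice's age or strain, the Cre driver or the deleted part of Bptf.

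The deposited values came as 1 column per group and none per library, so nothing below has a replicate check, each difference is between 2 sorted populations as sequenced, and intervals cover counting error only. Each column is 1 series of whole read counts after rescaling, with totals of 2036681 to 3840462 counts, of which the ribosomal RNA gene Rn45s took 9.76% to 32.2%. The genotype names of the basal columns conflicted between tables: the same counts were headed WT in one table and KO in another. They are therefore told apart by their totals, as the larger and the smaller basal column. No genotype direction was read from them. The libraries titled KO luminal carry a source label of WT mice, so their column is called the column labelled KO luminal. Bptf itself did not settle the labels, since its level was 571 in WT luminal, 736 in the column labelled KO luminal, 558 in the smaller basal, 750 in the larger basal and 680 in the Bsecs column.

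14-3-3 proteins are small acidic proteins that work as dimers and clamp onto other proteins at phosphorylated serine or threonine motifs. By binding they can hold a client in the cytoplasm, hide or expose its active surface, or keep it from being dephosphorylated. Most members are present in nearly all cells and pair with each other, whereas 14-3-3 sigma is restricted to epithelia, prefers to pair with itself, and is known as a target of p53 that restrains entry into mitosis after DNA damage.

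The upstream sequences of Sfn and of Ywhae, the most abundant of the other members, are shown because the genes differ both in how far their levels ranged and in how many CG dinucleotides lie before their starts. Each runs 5′ to 3′ over the 250 bases before the annotated start in RefSeq (build GRCm38.p6), with every CG in capitals. Sfn is at chr4:133602169-133602418 on the minus strand and Ywhae at chr11:75732637-75732886 on the plus strand.
Sfn: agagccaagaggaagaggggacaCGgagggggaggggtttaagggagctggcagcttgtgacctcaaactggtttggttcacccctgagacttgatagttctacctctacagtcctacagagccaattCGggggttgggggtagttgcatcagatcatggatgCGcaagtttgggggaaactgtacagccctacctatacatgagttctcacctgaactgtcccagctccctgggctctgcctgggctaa
Ywhae: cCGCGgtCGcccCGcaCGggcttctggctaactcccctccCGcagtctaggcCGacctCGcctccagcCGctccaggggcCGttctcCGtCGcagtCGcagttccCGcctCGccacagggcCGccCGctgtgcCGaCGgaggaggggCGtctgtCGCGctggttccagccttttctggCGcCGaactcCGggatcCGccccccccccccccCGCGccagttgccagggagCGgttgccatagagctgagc
The Sfn window held 3 CG and the Ywhae window 29.

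Of the 7 members, 5 had a window in the RefSeq table. Ywhah had 29 CG, Ywhaq 24 and Ywhag 16, so Sfn had the fewest of the 5. Over 32851 windows of the same length the median was 6 CG, and 62.2% of windows held more than Sfn. The GC content was 54.4% for Sfn against 58.4% (Ywhag) to 73.2% (Ywhae). Motifs were searched on both strands as plain letters. TATAAA, the TATA box core, was found in the Ywhah window alone among the 5 and in 12.4% of all windows. GGGCGG, the GC box of Sp1-type factors, was found 2 times each in Ywhae, Ywhag and Ywhah and in 32.7% of all windows. TGANTCA (AP-1), GGAATG (TEAD) and a single half-site of the p53 family were found in none of the 5 windows, against 6.75%, 12.6% and 7.13% of all windows. Sequence further upstream was not searched. These counts say only which letters the windows hold.

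Sfn differed widely between the columns. On 1 common scale (normalised counts, every column divided by its median-of-ratios factor) Sfn was at 444 in WT luminal, 1034 in the larger basal, 5174 in the column labelled KO luminal, 20292 in the smaller basal and 53100 in the Bsecs column. These rest on 497, 1075, 7159, 15284 and 50397 counts. The columns of each lineage thus fell apart, with 1 low and 1 high column among the luminal and among the basal populations, and Bsecs stood above all 4.

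The counting intervals of neighbouring columns in that order did not overlap, and the highest level was 120 times the lowest. Of 6455 genes with a mean level of at least 50, 94.5% had a smaller range, and the median range was 3.54 times. Outside Rn45s, Sfn took 0.0204% of the counts of WT luminal cells and 2.03% of those of Bsecs.

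**Figure D1:**
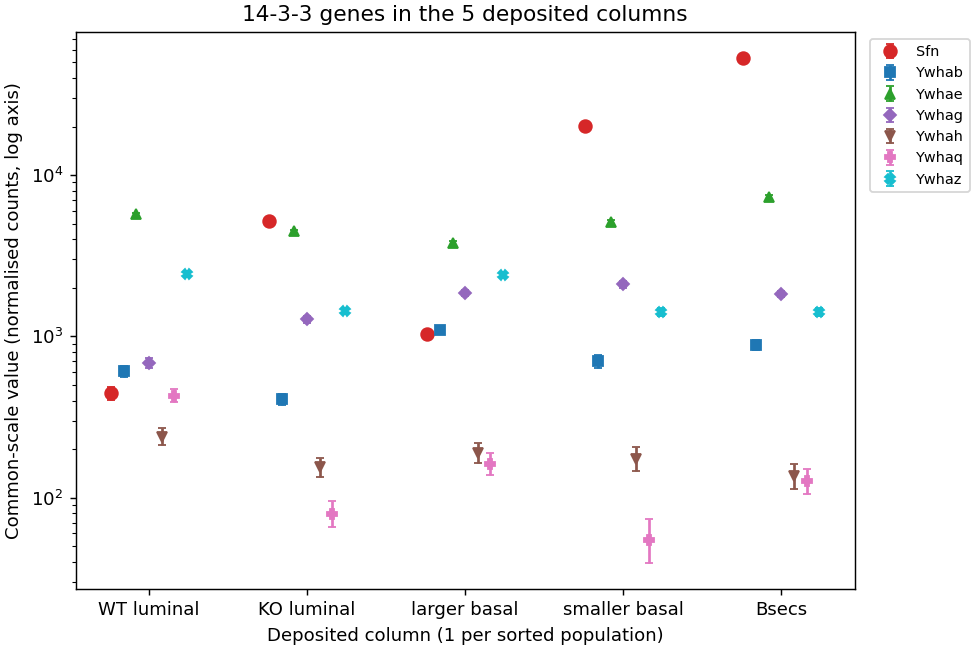
Common-scale values (normalised counts, log axis) of the 7 genes in the 5 deposited columns, each point 1 column and each bar an exact Poisson 95% interval of the counts. Sfn runs from 444 in WT luminal to 53100 in Bsecs, while Ywhae stays between 3771 and 7317.

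In the luminal table, Sfn was 11.5-fold higher in the column labelled KO luminal than in WT luminal (95% interval 10.5 to 12.6). The p-value of the authors' deposited table was 1.42e-05, or 0.0349 after Benjamini-Hochberg adjustment over all genes, and 0.0882% of all genes passed that threshold. In the basal table the smaller column exceeded the larger by 19.9-fold (18.7 to 21.2), with p = 0.000324 and an adjusted p of 0.337 from the authors' deposited table. These are the contrasts that chose Sfn.

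Against Bsecs, Sfn was 125-fold lower in WT luminal (114 to 137), 51.6-fold lower in the larger basal (48.5 to 54.8) and 10.6-fold lower in the column labelled KO luminal (10.3 to 10.8). The smallest gap was to the smaller basal column, which was 2.60-fold below Bsecs (2.55 to 2.64). None of these 4 passed the p-value of the authors' deposited tables, which ran from 0.435 to 0.957 unadjusted. The 4 tables share the Bsecs column, so their folds are not independent of each other.

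The other 6 genes together changed far less than Sfn did. Their summed level was 10093 in WT luminal, 7831 in the column labelled KO luminal, 9476 in the larger basal, 9554 in the smaller basal and 11712 in Bsecs, a 1.50-fold range. With Sfn added, the summed level of the family was 10537 in WT luminal, 10509 in the larger basal and 13005 in the column labelled KO luminal. It was 29846 in the smaller basal and 64812 in Bsecs. Both the summed level and the make-up of the family thus differed between columns. Sfn was 4.21% of the 14-3-3 reads in WT luminal (3.86% to 4.59%, exact binomial interval) and 9.84% in the larger basal (9.28% to 10.4%). It was 39.8% in the column labelled KO luminal (39.1% to 40.5%), 68.0% in the smaller basal (67.4% to 68.6%) and 81.9% in Bsecs (81.6% to 82.2%). Sfn went from 0.0440 reads for each read of the other 6 genes in WT luminal to 4.53 in Bsecs.

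**Figure D2:**
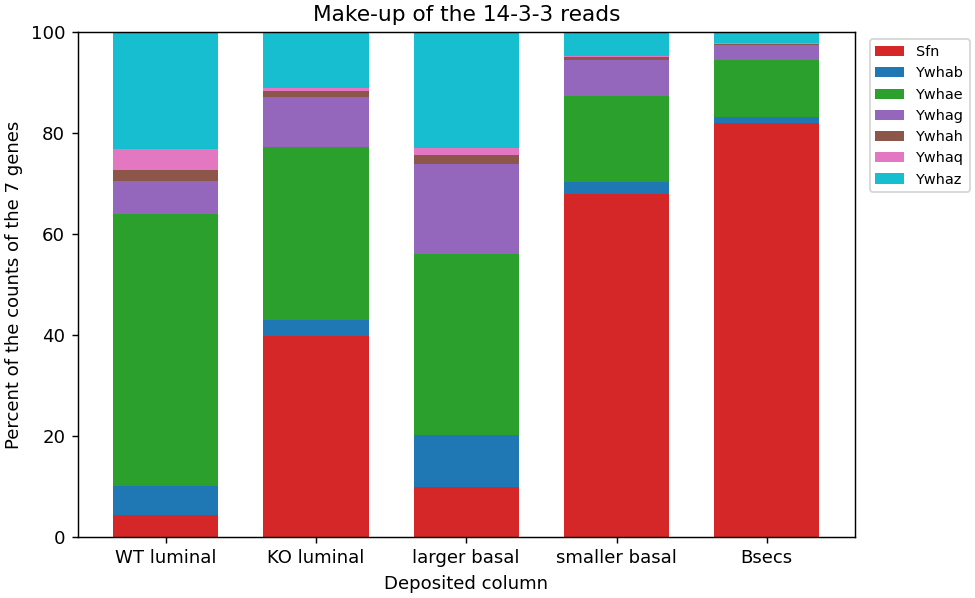
Percent of the summed counts of the 7 genes (vertical axis) that each gene took in each deposited column (1 bar per column). Sfn is 4.21% of the bar in WT luminal and 81.9% in Bsecs.

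Ywhae encodes 14-3-3 epsilon, which pairs mostly with other isoforms. It was the most abundant of the other 6 genes in every column, also per length of mRNA, at 5698 in WT luminal, 4475 in the column labelled KO luminal, 3771 in the larger basal, 5104 in the smaller basal and 7317 in Bsecs. Its highest level was 1.94 times its lowest, and 11.5% of the 6455 genes had a smaller range. Ywhae was thus nearly even over columns in which Sfn was not.

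Ywhaz encodes 14-3-3 zeta, a partner of Raf kinases and of pro-apoptotic proteins. Its level was 2440 in WT luminal and 2401 in the larger basal, against 1441 in the column labelled KO luminal, 1417 in the smaller basal and 1416 in Bsecs. The columns with the lowest Sfn thus had the highest Ywhaz, with a difference of 1.72-fold between WT luminal and the column labelled KO luminal (1.62 to 1.82) and of 1.67-fold between the basal columns (1.56 to 1.80). In the authors' deposited tables the p-values were 0.275 and 0.365. The 3 lower columns could not be ranked among themselves within counting error.

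Ywhab encodes 14-3-3 beta, a close relative of zeta. It was at 606 in WT luminal, 407 in the column labelled KO luminal, 1094 in the larger basal, 698 in the smaller basal and 882 in Bsecs. It was the only member that was highest in the larger basal column. Within each lineage the column with more Sfn had less Ywhab, by 1.51-fold in luminal (1.35 to 1.70) and 1.55-fold in basal (1.39 to 1.72), with p = 0.398 and 0.436 in the authors' deposited tables.

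Ywhag encodes 14-3-3 gamma, which among other clients binds the p53 inhibitor Mdm4. It was the member that came nearest to following Sfn, at 680 in WT luminal, 1275 in the column labelled KO luminal, 1858 in the larger basal, 2107 in the smaller basal and 1834 in Bsecs. Unlike Sfn, it was high in both basal columns, and it differed between Bsecs and the larger basal by a fold of 0.991 (0.929 to 1.06). Its level in the column labelled KO luminal was 1.84-fold that of WT luminal (1.69 to 2.01; p = 0.205 in the authors' deposited table).

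Ywhah encodes 14-3-3 eta and Ywhaq encodes 14-3-3 theta, and they were the least abundant members. Ywhah was at 238 in WT luminal, 154 in the column labelled KO luminal, 188 in the larger basal, 174 in the smaller basal and 136 in Bsecs. Ywhaq was at 429.5 in WT luminal, 79.5 in the column labelled KO luminal, 163 in the larger basal, 54.4 in the smaller basal and 126 in Bsecs. Ywhaq thus had the widest range of the 6, 7.89 times, and was lower in the high-Sfn column of each lineage. It was 5.49-fold lower in the column labelled KO luminal than in WT luminal (4.45 to 6.81), with p = 0.00208 and an adjusted p of 0.512 in the authors' deposited table. The smaller basal column was 2.94-fold below the larger (2.08 to 4.25; p = 0.173 in the authors' deposited table), on 41 and 169 counts. In Bsecs, Ywhaq lay between these, 3.26-fold below WT luminal (2.66 to 4.01).

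A difference of 4-fold or more, among genes with a mean value of at least 50 in the table, was taken as a large one. Between the luminal columns, 2 of the 7 members passed it, Sfn higher and Ywhaq lower, against 4.14% of all genes. Between the basal columns 1 member did, against 5.75%. With Bsecs, 1 member passed against the larger basal (15% of all genes), none against the smaller basal (15.2%), 1 against the column labelled KO luminal (16.5%) and 1 against WT luminal (18.8%). The member was Sfn in each. After adjustment of p in the authors' deposited tables, Sfn was the 1 member called between the luminal columns, and no member was called elsewhere. Of all genes, 0.0274% were called between the basal columns, and for Bsecs 0.48% against the larger basal, 0.759% against the smaller basal, 0.0405% against the column labelled KO luminal and 0.21% against WT luminal.

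**Figure D3:**
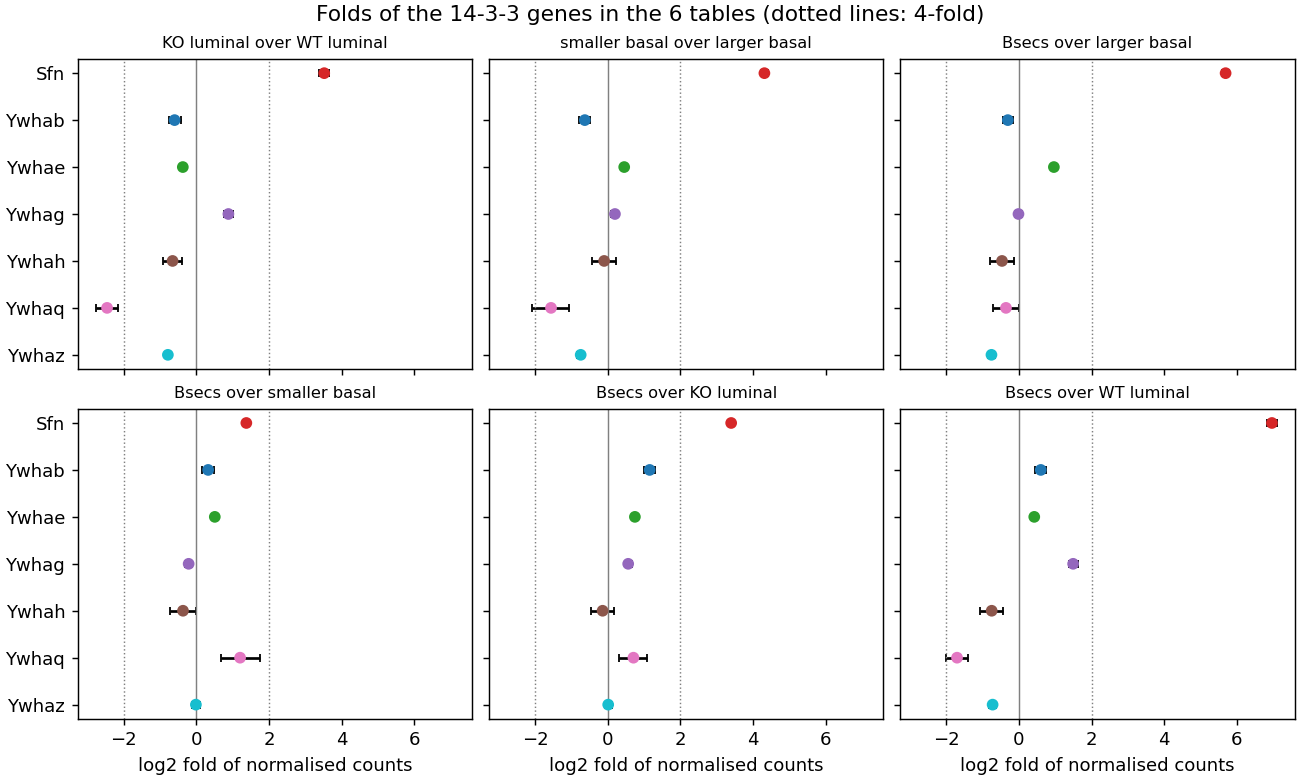
Log2 folds (horizontal axis) of the 7 genes (rows) in the 6 deposited comparisons (panels), with exact binomial 95% intervals of the counts as bars and 4-fold marked by dotted lines. Sfn lies beyond 4-fold in 5 panels and Ywhaq in 1, the luminal one.

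The members are similar in coding sequence but share only short identical stretches with each other. Their coding sequences have 735 to 765 bases (GENCODE vM21, GRCm38) and lie on chromosomes 4 (Sfn), 2 (Ywhab), 11 (Ywhae), 5 (Ywhag and Ywhah), 12 (Ywhaq) and 15 (Ywhaz). Sfn was 62.2% to 70.0% identical to the others, and the closest pair, Ywhag and Ywhah, was 78.7% identical. No pair of mRNAs shared an identical stretch longer than 30 bases, and Sfn shared at most 21 with any member. Copies elsewhere are another matter, since processed pseudogenes of this family are common. Of the stretches of 50 bases in each mRNA, 37.8% in Ywhaq, 19.9% in Ywhaz, 18.6% in Ywhah and 15.0% in Sfn occurred also in other annotated genes, against 0.461% in Ywhag and none in Ywhab and Ywhae. How the counting treated such reads is not given in the sources used here, so the values of Ywhaq, the most affected, are uncertain.

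The genes whose products bind 14-3-3 proteins, act on their binding sites or set the level of Sfn were taken as 7 lists. After adjustment of p in the authors' deposited tables, none of their genes passed in any of the 6 comparisons. The counts below are of 4-fold differences at a mean of at least 50, to be set beside the shares of all genes given above. Between the luminal columns the median log2 fold (values plus 1) was 0.62 for the signalling clients, 0.70 for the transcription regulators, 0.43 for the kinases and phosphatases, 0.41 for the regulators of Sfn, 0.31 for the p53 targets, -0.08 for the cell cycle clients and -0.09 for the keratins, against 0.10 over all genes and close to 0 over those with a mean of at least 50. Between the basal columns (smaller over larger) these medians were, in the same order, 0.23, 0.73, 0.24, 0.20, -0.09, -1.04 and 1.91, against -0.29 over all genes and 0.10 over those with a mean of at least 50. With genes at 0 set to 3 counts, the cell cycle clients moved to -0.83 and -0.13 and the regulators to 0.01 and 0.35, so the medians of these sparse lists are not firm. Most of the cell cycle clients, the proteins through which sigma is known to restrain mitosis, were scarcely present as mRNA. Exceptions were Eif4b, lowest in WT luminal at 879 and highest in Bsecs at 2199, and Cdk4, lowest in WT luminal at 92.0 and highest in Bsecs at 320. Of 12 such genes, 3 or 4 reached a mean of 50 in a comparison, and none of them differed by 4-fold. Ccnb1 (cyclin B1) and Cdc25c, the phosphatase that activates Cdk1, were at 0 in every column but WT luminal. Cdk1 itself was at 0 in both basal columns and Bsecs, where a count of 0 allows a level of up to 2.88 to 3.98. Wee1, the kinase that restrains Cdk1, was measurable throughout, at 239 in WT luminal, 460 in the column labelled KO luminal, 188 in the larger basal, 89.0 in the smaller basal and 221 in Bsecs.

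Of the signalling clients, 1 of 17 was higher by 4-fold between the luminal columns, Bcl2l11, which encodes the pro-apoptotic protein Bim. It was 4.66-fold higher in the column labelled KO luminal (3.77 to 5.81). Between the basal columns none of 17 was, and Braf, a kinase that 14-3-3 proteins hold inactive, came nearest at 3.99-fold lower in the smaller (3.20 to 5.02). In Bsecs, 1 of 19 was 4-fold higher and 2 lower than in the larger basal, and 1 of 18 higher and 2 lower than in the smaller. Against WT luminal 1 of 17 was higher and 1 lower, and none of 18 passed against the column labelled KO luminal. Ksr1, a scaffold of the Raf pathway, was in Bsecs 24.2-fold below the larger basal (10.9 to 67.0) and 39.4-fold below the smaller (17.7 to 109). It was low in all columns but the basal ones, at 6.32 in Bsecs, 5.36 in WT luminal and 8.67 in the column labelled KO luminal. Tbc1d1, an Akt substrate of glucose transport, was in Bsecs 4.81-fold above the larger basal (4.28 to 5.41) and 5.13-fold above WT luminal (4.58 to 5.77).

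Among the transcription regulators bound by 14-3-3 proteins, the CREB coactivator Crtc3 was 4.24-fold higher in the column labelled KO luminal (2.97 to 6.20). It was the only 1 of 15 past 4-fold there. Its relative Crtc1 was 6.39-fold higher (4.50 to 9.28) and the histone deacetylase Hdac5 4.34-fold higher (3.30 to 5.77) in the smaller basal, the 2 of 16 there. The remaining coactivator of the family, Crtc2, was at 130 and 147 in WT luminal and the column labelled KO luminal, and 2.86-fold higher in the smaller basal than in the larger (2.39 to 3.43). Foxo1, a growth-restraining factor that Akt and 14-3-3 proteins export from the nucleus, was highest in Bsecs at 858, against 95.5 in WT luminal, 228 in the column labelled KO luminal, 90.4 in the larger basal and 47.8 in the smaller basal. It was 9.36-fold higher in Bsecs than in WT luminal (7.65 to 11.6). Against the larger basal, the smaller basal and the column labelled KO luminal, 14 of 20 regulators were lower in Bsecs each time. The median log2 folds were -0.55, -1.05 and -0.64, against -0.21, 0.10 and -0.21 over all genes. Over genes with a mean of at least 50 they were 0.08, 0.04 and 0.13. Against WT luminal 10 were higher and 10 lower. Of 14 with a mean of at least 50, Crtc1 (9.42-fold), Wwtr1 (4.88-fold) and Crtc2 (4.37-fold) were 4-fold lower than in the smaller basal, and 1, Foxo1, was 4-fold higher.

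Of the kinases and phosphatases of client sites, none of 20 passed 4-fold between the luminal columns and none of 18 between the basal ones. Sik1, a kinase of the CRTC and class IIa deacetylase sites, was higher in the high-Sfn column of each lineage without passing 4-fold, at 507 in WT luminal, 367 in the larger basal, 1253 in the column labelled KO luminal, 963 in the smaller basal and 1131 in Bsecs. Rps6ka3 was 3.63-fold lower in the column labelled KO luminal (2.85 to 4.66). Ppp3ca, a catalytic subunit of calcineurin, was 6.61-fold higher in Bsecs than in WT luminal (5.65 to 7.77). Prkd1, which encodes protein kinase D1, was 6.06-fold lower in Bsecs than in the column labelled KO luminal (3.33 to 12.1).

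The regulators of Sfn differed in pattern among themselves. Trp53, whose protein activates Sfn, was at 388 in WT luminal, 327 in the column labelled KO luminal, 693 in the larger basal, 1330 in the smaller basal and 880 in Bsecs. Trp63, a basal factor that represses SFN in human keratinocytes, was at 3.57 and 18.1 in the luminal columns, 375 in the larger basal, 109 in the smaller basal and 100.1 in Bsecs. Trp63 was thus 3.40-fold lower in the basal column with more Sfn (2.67 to 4.37). Klf4, a factor of epidermal barrier formation, was highest in Bsecs at 943, against 210 in WT luminal, 319 in the column labelled KO luminal, 99.0 in the larger basal and 125 in the smaller basal. Klf4 was thus highest in Bsecs, as Sfn was, and 1.50-fold higher in the column labelled KO luminal than in WT luminal (1.27 to 1.76). Its basal values rest on 103 counts in the larger and 94 in the smaller, so no order of these 2 columns was read. No regulator with a mean of at least 50 passed 4-fold within a lineage.

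The other targets of p53 were mixed in direction. Between the luminal columns none of 16 with a mean of at least 50 was 4-fold higher, and 1 was 4-fold lower, Ccng1 (cyclin G1), by 4.41-fold in the column labelled KO luminal (3.42 to 5.75). Between the basal columns 1 of 14 was 4-fold higher, Cdkn1a, which encodes the cell cycle inhibitor p21, by 4.81-fold in the smaller (4.15 to 5.60). Like Sfn, Cdkn1a was highest in Bsecs and higher in the same column of each lineage, at 615 in WT luminal, 221 in the larger basal, 1315 in the column labelled KO luminal, 1050 in the smaller basal and 4817 in Bsecs. Against WT luminal, 4 of 17 targets were 4-fold higher in Bsecs and 4 were 4-fold lower. Cdkn1a was 8.17-fold higher there (7.54 to 8.86) and Polk, a translesion polymerase, 8.37-fold lower (5.85 to 12.4).

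Keratins 17 and 18 are known binding partners of 14-3-3 proteins, keratin 17 of sigma in keratinocytes. Krt17 was at 77.7 in WT luminal, 343 in the column labelled KO luminal, 2043 in the larger basal, 7568 in the smaller basal and 5008 in Bsecs. It was higher in the high-Sfn column of each lineage, by 4.34-fold in luminal (3.45 to 5.52) and 3.76-fold in basal (3.57 to 3.95). Krt18 was at 17668 and 16910 in the luminal columns and at 266, 514 and 2559 in the larger basal, smaller basal and Bsecs columns. It was thus 1.96-fold higher in the basal column with more Sfn (1.67 to 2.29) and differed by 1.06-fold in the opposite direction between the luminal columns (1.04 to 1.08). Krt8, the partner keratin of Krt18, was at 4904 and 4330 in the luminal columns and at 118, 465 and 707 in the same 3 columns, 3.98-fold higher in the smaller basal than in the larger (3.23 to 4.93).

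Summed markers of the sorted cell types followed the luminal and basal labels, and Bsecs held markers of both, with exceptions among single genes. The summed level of 15 luminal markers was 73652 and 89088 in the luminal columns, 5911 and 7639 in the larger and smaller basal, and 71621 in Bsecs. Of the sum in Bsecs, 39058 came from Cldn4, a tight junction claudin, alone. By single genes, 12 of the 15 were lower in Bsecs than in WT luminal, with a median log2 fold of -1.33 (-0.09 over all genes). As many were lower than in the column labelled KO luminal, with a median of -1.82 (-0.21 over all genes). Of 13 with a mean of at least 50, 5 were 4-fold lower in each comparison. The shares of all genes 4-fold lower were 9.57% against WT luminal and 10.1% against the column labelled KO luminal. Prlr, the prolactin receptor, was at 125 in Bsecs against 15019 in WT luminal and 7785 in the column labelled KO luminal.

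Within the basal lineage 2 luminal markers were called in opposite directions. Esr1, the estrogen receptor, was at 947 in the smaller basal column, above WT luminal (320) and the column labelled KO luminal (434), and at 28.8 in the larger basal. It was 33.3-fold higher in the smaller than in the larger (23.1 to 49.7), with an adjusted p of 0.00230 in the authors' deposited table. Cldn4 was 66.8-fold lower in the smaller (25.9 to 246), with an adjusted p of 0.0123 in the authors' deposited table. The sum of 13 basal markers was 1443 and 2602 in the luminal columns, 28250 and 50655 in the larger and smaller basal, and 20725 in Bsecs. Bsecs held basal keratins with little of the contractile genes, with Krt14 at 8945, and with Acta2 (smooth muscle actin) at 144, whereas Acta2 was at 16612 in the smaller basal column and at 11621 in the larger. By adjusted p, 4 of the 13 were called lower when Bsecs was set against the larger basal and 5 against the smaller. Cnn1 (calponin), for example, was 142.5-fold below the larger (55.4 to 525) and 612-fold below the smaller (239 to 2250), with adjusted p of 0.0103 and 0.000923 in the authors' deposited tables. Krt5, a basal keratin, was called higher in Bsecs than in WT luminal, on 3139 and 1 counts, with an adjusted p of 0.00931 in the authors' deposited table. In bulk samples, fewer cells of a type and less RNA per cell cannot be told apart.

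Stratified keratinocytes are another cell type with much 14-3-3 sigma. The sum of their markers over 13 genes was 2261 in WT luminal, 6345 in the column labelled KO luminal, 1188 in the larger basal, 1528 in the smaller basal and 18938 in Bsecs. In Bsecs, 5 of 6 of these genes with a mean of at least 50 were 4-fold higher than in the larger basal (7.5% of all genes). The same count held against the smaller basal (7.05%) and WT luminal (9.22%), with 4 of 6 against the column labelled KO luminal (6.41%). By adjusted p in the authors' deposited tables, Sprr1a (0.00076), Krt6a (0.00276) and Dsg3 (0.0310) were called higher than in the smaller basal. Lgals7 (0.0269) was called higher than in WT luminal. Between the luminal columns 1 of 4 of these genes with a mean of at least 50 was 4-fold higher and none passed the adjusted p. The gene was Sprr1a, a cornified envelope protein, at 468 in WT luminal and 3607 in the column labelled KO luminal, which made up most of the difference in the sum. Between the basal columns 1 of 2 was 4-fold higher, Krt16, a keratin of activated keratinocytes, at 224 in the smaller and 51.0 in the larger (4.46-fold, 3.26 to 6.20). Dsp, which encodes desmoplakin, was 1.30-fold higher in the smaller (1.19 to 1.42). Not all of the 13 were high in Bsecs. Krt1, Krt10 and Sprr1b were at 0, 3.16 and 0 there, against 13.4, 5.36 and 0 in WT luminal, and Krt10 was at 11.5 in the larger basal. Ivl and Lor, which define the outer epidermis, were at 3.16 and 0 in Bsecs and at 2.89 and 0.723 in the column labelled KO luminal. Both were at 0 in WT luminal and in both basal columns. In the smaller basal column Sprr1a and Dsg3 were at 0 too and Krt6a was at 3.98, while Sfn was at 20292. Fibroblast markers ran the other way in the basal lineage, with a sum over 6 genes of 2123 in the larger and 380 in the smaller column. They were 816 and 989 in the luminal columns and 327 in Bsecs. Dcn alone was at 775 in WT luminal and 983 in the column labelled KO luminal, and no other fibroblast marker exceeded 19.6 in either. The sums of 5 endothelial and 7 immune markers were at most 233 and 38.3. The part of these cell types in the Sfn differences was not tested.

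The genes nearest to Sfn in pattern were taken as the 8 with the smallest root mean square difference of centred log2(value + 1) over the 5 columns. The 7 of them described here were Ncald, Fam83g, Bnc1, Wbscr16, Tgfb1, Nuak1 and Ddit4, with differences of 0.906 to 1.38 log2 units and Pearson correlations of 0.86 to 0.99 over 5 points, given as a description. Ncald, a neuronal calcium sensor, was nearest, at 9.82 in WT luminal, 14.4 in the larger basal, 189 in the column labelled KO luminal, 189 in the smaller basal and 342 in Bsecs. Bnc1 encodes a zinc finger protein of basal keratinocytes. Ddit4, a stress-induced inhibitor of mTORC1, was the most abundant of those with the order of Sfn, at 148 in WT luminal, 285 in the larger basal, 697 in the column labelled KO luminal, 1073 in the smaller basal and 1457 in Bsecs. Its range was much narrower than that of Sfn. Among the 14-3-3 genes the correlation with Sfn was 0.69 for Ywhag, 0.53 for Ywhae, 0.06 for Ywhab, -0.72 for Ywhaq, -0.87 for Ywhah and -0.91 for Ywhaz, over the same 5 columns.

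**Figure D4:**
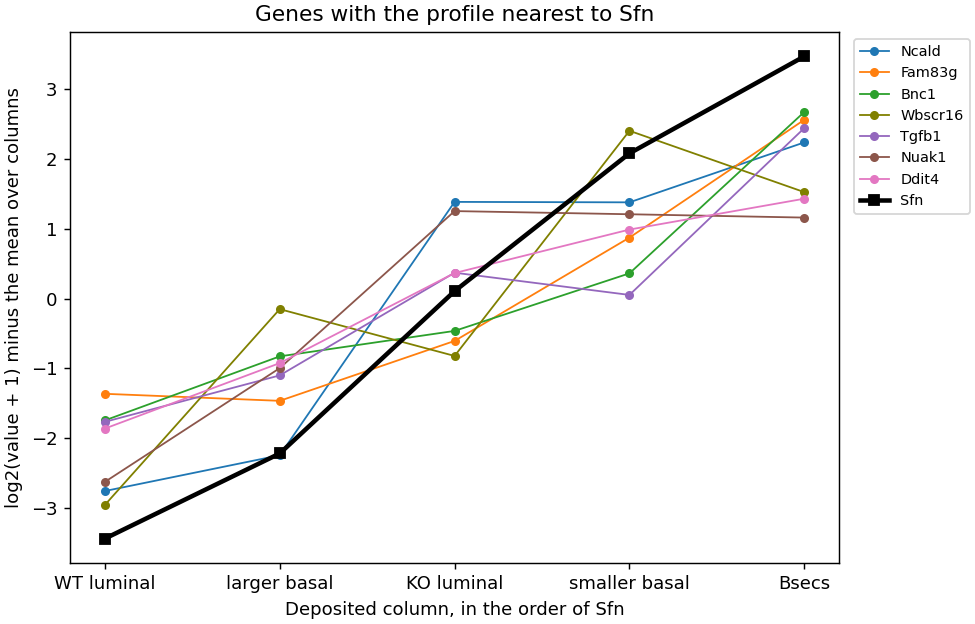
Centred log2(value + 1) (vertical axis) of Sfn and of 7 of the 8 genes nearest to it over the 5 deposited columns, ordered by the level of Sfn. Sfn spans more than the other lines, and Ncald lies nearest with a root mean square difference of 0.906.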

How the data were processed

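Libraries were made from sorted-cell RNA with the Ovation RNA-seq V2 and Ultralow DR kits, per the labels' protocols. Per the submitters' processing notes, STAR, DESeq and the mm9 build were used. No source used here gives versions, read counter, annotation or strand setting. Per the file headers, the 6 tables the authors deposited give a mean signal (normalised read counts of DESeq) for either group and an unadjusted p-value. In the authors' deposited columns 100% of values were whole multiples of 1 read within 0.01 of a count, so counts were recovered. Each p-value compares 1 column with 1 column, and whether a column pools both libraries is not given. No count test was the main result.

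Calls used the authors' deposited p-value with Benjamini-Hochberg adjustment over all genes at 0.05, or a fold of at least 4 at a mean value of at least 50, with 0 counts set to a floor of 3. Fold intervals are exact binomial (Clopper-Pearson) and level intervals exact Poisson, both 95%. Both cover counting error only, because reads were amplified by PCR with no molecular identifiers stated. Levels across tables used median-of-ratios factors. The 13 lists, of 169 genes with 166 matched, and the members were chosen with earlier results of these data known. Genes open to naming were the 7 members, up to 4 genes per list and comparison with the largest fold at a mean of at least 50, and any past the adjusted threshold. The 8 nearest to Sfn were open to naming too, passing over predicted genes and small RNAs. Not every gene open to naming is named, nor is every call past the adjusted threshold given. Of those 8, 1 is not reported here. Genes or values outside that rule (Ccnb1, Cdc25c, Cdk1, Bptf and marker genes) were chosen after their values were seen. Protein sequences were not used here, and identity was computed on coding sequences instead. Alternatives were other scalings, another filter, other pseudocounts and the edgeR exact test on recovered counts with an assumed dispersion of 0.16. The steps were tested on simulated data. Python 3.11.15, numpy 2.4.6, pandas 2.3.3, scipy 1.17.1, Biopython 1.88, matplotlib 3.10.9, R 4.3.3 and edgeR 4.0.16 were used.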

Additional observations from a re-analysis of the deposited data

How the results depend on the processing

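No paired analysis was possible because the tables hold 1 column per group and no value per library, and for the same reason no replicate could be left out. With edgeR's exact test at an assumed dispersion of 0.16, the genes called went from 13 to 226 between the luminal columns, from 4 to 350 between the basal columns, and for Bsecs from 72 to 1276 against the larger basal, from 104 to 1398 against the smaller basal, from 6 to 1650 against the column labelled KO luminal and from 30 to 1976 against WT luminal. By that test Sfn alone of the 7 genes was called, with an adjusted p of 0.0191 between the luminal columns, and 1 member in place of none was called between the basal columns (0.00284) and for Bsecs against the larger basal (4.48e-06), the column labelled KO luminal (0.00529) and WT luminal (6.74e-08). Against the smaller basal it was not (0.371). The dispersion is assumed, so these are not replicate tests. Sfn was chosen for its luminal and basal differences in these same columns, so its calls by this test are no support for it. Adjusting over genes with a mean of at least 10 gave 8 calls between the basal columns and 13 for Bsecs against the column labelled KO luminal.

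Scaling by totals without Rn45s took the range of Sfn from 120 to 99.7 times, and TMM gave 119. Of 126 folds of members under other scales 125 kept their side of 4-fold, and Ywhaq in Bsecs against WT luminal went from -1.70 to -2.03 on the log2 scale. The sign changed in 4, all of Ywhaz near 0, and scales shifted log2 folds by -0.36 to 0.11. With a minimum level of 200 in place of 50, 2 of the 8 genes nearest to Sfn were shared. List medians moved by 0.1 or more on the log2 scale in 18 of 78 cases with a pseudocount of 0.5 and in 31 with 5.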

Other observations

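In the comparisons with Bsecs, the most abundant genes had large p-values from DESeq in what the authors deposited, whatever their fold. Sfn differed by 125-fold between Bsecs and WT luminal, and the DESeq p was 0.700. The table for that comparison held 7 genes with a mean of at least 0.5 times that of Sfn, of which 2 differed by 4-fold or more, and none had an unadjusted p under 0.05, while 4.29% of all genes did. Against the larger basal column 8 genes were that abundant, 4 differed by 4-fold or more, and the smallest p was 0.608, for Cldn4, a tight junction claudin. Against the smaller basal column, where Cldn4 rested on 37070 and 4 counts, its p was 0.0762. In the luminal table, where the mean of Sfn was lower, 13 of 201 genes that abundant had an unadjusted p under 0.05. The cause was not tested.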
